A study of Mus musculus with 4 samples.

Results

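The natriuretic peptide system and the atrial light chains were followed across 4 single-colour oligonucleotide arrays of mouse mitral valve RNA. The set held 10 genes, taken by name: the peptide genes Nppa, Nppb and Nppc, the receptor genes Npr1, Npr2 and Npr3, the protease gene Corin, the atrial myosin light chain genes Myl4 and Myl7, and Sln. Every probe set annotated to exactly 1 of these genes was used, which gave 14 of the 22690 probe sets on the array. All 10 genes had at least 1 probe set, of 12393 genes with a probe set of their own. Nppc was chosen by its low intensities on the heterozygous arrays, so its levels are described and not tested.

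The wild-type group (WT, Fbn1 +/+) held 1 array, the heterozygous group (Het) 2 arrays, numbered Het1 and Het2 in the labels, and the homozygous group (Hom) 1 array. The Hom label gives the fibrillin-1 allele as C1039G on both copies. The Het labels name the same residue without its substitute, and the same allele was assumed. Fibrillin-1 forms the extracellular microfibrils of connective tissue, and missense changes of this kind are used to model Marfan syndrome, in which the mitral valve can become long and floppy. Age, sex, strain and the number of animals behind each array were not given in the sources used here, so the Het pair measures only the spread between these arrays. Fibrillin-1 itself was not analysed here.

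Natriuretic peptides are hormones that the heart releases when its walls are stretched. Nppa encodes atrial natriuretic peptide (ANP) and Nppb encodes brain natriuretic peptide (BNP), both made by heart muscle cells, while Nppc encodes C-type natriuretic peptide (CNP), which acts mostly near the endothelial and connective tissue cells that make it. ANP and BNP act through Npr1 and CNP through Npr2, receptors that make cyclic GMP inside the cell, and Npr3 clears the peptides. Myl4 and Myl7 are the light chains of atrial myosin, and Sln encodes sarcolipin, an atrial inhibitor of the calcium pump.

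Values are intensities, with the 4 arrays brought to a common median. Intensities of at most 19.05, the 25th percentile of all values, were treated as a floor that carries no order. In all, 9 of the 10 genes had a mean level high enough to be kept among 7317 genes tested; Npr1 was not kept. One probe set represented each gene, so levels are compared between arrays and never between genes.

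The Het arrays stood apart from each other although they share a genotype label. Of the 7317 genes, 9.25% were at least 2-fold apart between them. The 3' probes of Actb read 3.04 times its 5' probes in Het2, and 2.16 to 2.25 times on the other arrays, which gauges RNA integrity. The same ratio for Gapdh was 4.65 in Het2 and 3.19 to 4.18 elsewhere, and the hybridisation controls had a geometric mean intensity of 196 in Het2 and 441 to 700 elsewhere. The part of these in the results below was not tested. Valve interstitial and fibroblast markers of the labelled tissue were present, with 15 of the 16 on the array kept. Cardiomyocyte markers were also present, with 30 of 32 kept. The median of their log2 differences from WT was 0.19 in Het1, -0.95 in Het2 and 0.06 in Hom, and their summed intensity was 48931 in WT, 61547 in Het1, 26153 in Het2 and 48805 in Hom. Macrophage markers, 14 of 17 kept, had summed intensities of 4994, 4190, 8935 and 4709 in the same order. In bulk tissue, fewer cells of a type and less RNA per cell cannot be told apart. Each result on the Het arrays is therefore given array by array.

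The peptide genes of heart muscle, Nppa and Nppb, were highest in Het1 and lowest in Het2. Nppa read 2245 in WT, 4338 in Het1, 1526 in Het2 and 1934 in Hom. The Het values enclosed both other arrays, and the Het arrays differed 2.84-fold. Nppb read 377.2 in WT, 806.1 in Het1, 274 in Het2 and 601.8 in Hom, with the Het arrays 2.94-fold apart. Nppb was the gene of the set at least 2-fold above WT in Het1, where 0.656% of genes tested were. The order of Het1 highest and Het2 lowest was found at 9.01% of the genes tested. It was not particular to the peptide genes. The cardiomyocyte marker medians from WT, 0.19 in Het1, -0.95 in Het2 and 0.06 in Hom, had the same order. Of the 30 markers kept, 29 were lower in Het2 than in Het1. Single markers such as Tnnt2, Actc1 and Mb had Het1 highest and Het2 lowest as well, while others such as Myh6 and Tcap did not. Nppa and Nppb parted company in Hom, where the log2 difference from WT was -0.22 for Nppa and 0.67 for Nppb.

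**Figure D1:**
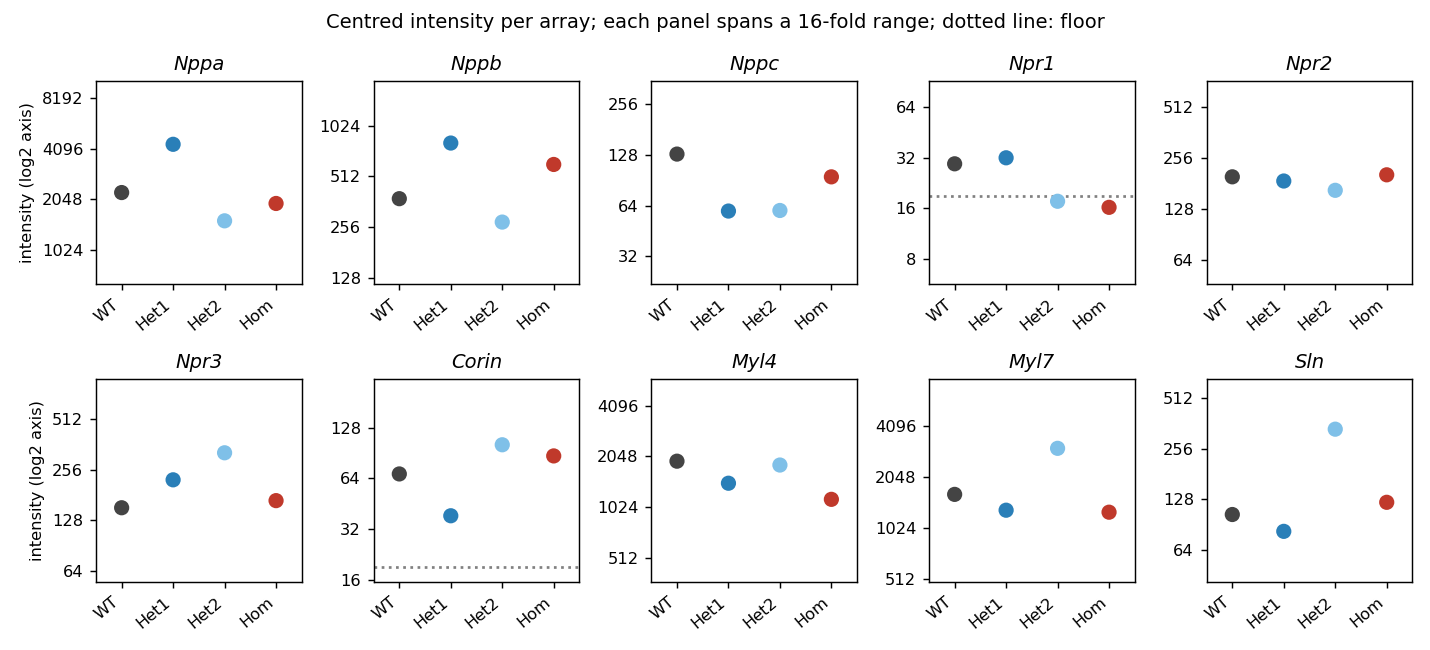
Centred intensity on a log2 axis for each of the 10 genes, with 1 point for each array (WT, Het1, Het2 and Hom), each panel spanning the same fold range, and a dotted line at the floor of 19.05. Nppa and Nppb are highest in Het1 and lowest in Het2, Nppc is low in both Het arrays, and Myl7 and Sln are highest in Het2.

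No genotype difference of either peptide gene passed the test, which takes its spread from the Het pair. Here and below, limma draws each SE toward the spread of all genes tested, so it is not that of the gene alone. The Het minus WT difference in limma's fit was 0.20 log2 units for Nppa (SE 0.57) and 0.32 for Nppb (SE 0.57), each with a limma adjusted p of 1. For Hom minus WT it was -0.22 for Nppa (SE 0.66) and 0.67 for Nppb (SE 0.66), with limma adjusted p of 1 for both. For Hom minus Het it was -0.41 (SE 0.57) and 0.36 (SE 0.57), again with limma adjusted p of 1. The Het mean hides opposite directions. The log2 difference from WT was 0.95 in Het1 and -0.56 in Het2 for Nppa, and 1.10 and -0.46 for Nppb.

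In RefSeq, Nppa and Nppb are neighbours on the same chromosome with 0 protein-coding genes between them. The 250 bases before each annotated start are shown because the genes shared this order of the arrays. The strand shown is that of the gene, in build GRCm38.p6, with Nppa at chr4:148000472-148000721 (plus strand) and Nppb at chr4:147985650-147985899 (plus strand). Capitals mark matches, on either strand, to the motifs searched: AGATAA and TGATAA for GATA factors, TNAAGTG for NKX2-5, GGTGTGA for T-box factors, GGAATG (the M-CAT motif of TEAD factors), TATAAA, and the CArG box of serum response factor.
Nppa: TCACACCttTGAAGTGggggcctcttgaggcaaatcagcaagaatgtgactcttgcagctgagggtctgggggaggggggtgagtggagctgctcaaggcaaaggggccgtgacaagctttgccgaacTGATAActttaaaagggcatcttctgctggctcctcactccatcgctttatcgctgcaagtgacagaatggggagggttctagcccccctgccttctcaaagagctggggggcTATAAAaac
Nppb: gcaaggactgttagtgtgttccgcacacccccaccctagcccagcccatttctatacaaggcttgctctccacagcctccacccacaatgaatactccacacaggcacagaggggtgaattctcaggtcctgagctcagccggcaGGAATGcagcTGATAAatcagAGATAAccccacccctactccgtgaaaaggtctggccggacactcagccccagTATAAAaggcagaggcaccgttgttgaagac
The Nppa window opened with a T-box match in reverse complement, 250 bases before the start. An NKX2-5 match followed at 241 bases, and TGATAA lay at 122 bases. The Nppb window held GGAATG 105 bases before the start, TGATAA at 95 bases and AGATAA at 84 bases. TATAAA lay 9 bases before the Nppa start and 31 before the Nppb start. Among all 32851 promoter windows of this length, 7.94% held TGATAA, 9.99% AGATAA, 10.1% TNAAGTG, 3.33% GGTGTGA, 12.6% GGAATG, 12.4% TATAAA and 1.47% a CArG box. No 2 of these motifs overlapped in the windows shown. A match is a description of the letters and not a binding site.

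The array carried probes for 11 cardiac transcription factors that are known regulators of natriuretic peptide genes, and 9 were kept. The median log2 difference from WT was -0.22 in Het1 and -0.24 in Het2, while the median of all genes was -0.002 and 0.19. In both Het arrays 4 of the 9 were below WT and 0 above, against 21% and 35.5% of all genes tested. None of the 9 passed limma's adjusted threshold in any comparison. Tbx5, a T-box factor of the atria, read 162.8, 23.26, 57.85 and 161 in WT, Het1, Het2 and Hom. Its Het1 value was just above the floor of 19.05. It was the only one of the 9 at least 2-fold below WT in both Het arrays, where 0.123% of all genes tested were. Gata4 read 420, 336.8, 321.5 and 452.2, a narrower range in which both Het arrays were again lowest. Nkx2-5 read 105.8, 90.94, 109.1 and 131.3, and its Het values lay on both sides of WT. Tbx5 was thus lowest on the array where Nppa was highest, and a link between the genes was not tested.

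Nppc, the CNP gene, gave the same low reading on both Het arrays. It read 129.4 in WT, 59.45 in Het1, 59.91 in Het2 and 94.83 in Hom. Both Het arrays lay below WT and Hom, 2.18-fold and 2.16-fold below WT, and differed from each other by 0.01 log2 units. Hom lay between them and WT, 1.37-fold below WT. These readings chose the gene, so no test is given; for the record, 0.123% of genes tested were at least 2-fold below WT in both Het arrays and 10.4% had both Het arrays below WT and Hom. The match of the Het arrays depended on the scaling, since with the scaling as deposited the Het2 minus Het1 difference was -0.25 log2 units; after quantile normalization they differed by 0.02.

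Of the cardiomyocyte markers, 29 of 30 were lower in Het2 than in Het1, whereas Nppc read alike on both arrays after centring. With the scaling as deposited Nppc too was lower in Het2, at -0.25 log2 units from Het1. Its log2 difference from WT was -1.11 in Het2, near the marker median of -0.95. In Het1 it was -1.12, and all 30 markers were higher. The Het readings chose the gene, so this contrast is a description only. Of the 15 valve interstitial and fibroblast markers kept, 11 were below WT in both Het arrays and 0 above, against 21% and 35.5% of all genes tested. Their median log2 difference from WT was -0.287 in Het1, -0.585 in Het2 and -0.284 in Hom. The part of these markers in the Nppc readings was not tested. The genes whose centred log2 profile over the 4 arrays lay nearest to that of Nppc, among 7312 genes above the floor on all arrays, were Vps18 (distance 0.08), Eif4ebp2 (0.10), Psg28 (0.12), Eln (0.18) and Tle5 (0.18). Vps18 is a subunit of vacuolar sorting complexes, Eif4ebp2 a brake on translation initiation, and Eln encodes elastin, the core of elastic fibres. Eln read 3725 in WT, 1932 in Het1, 1717 in Het2 and 3071 in Hom. Likeness over 4 arrays rests on few points.

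The Nppc promoter window, chr1:86670574-86670823 (minus strand, GRCm38.p6), is shown for its contrast with those of Nppa and Nppb.
Nppc: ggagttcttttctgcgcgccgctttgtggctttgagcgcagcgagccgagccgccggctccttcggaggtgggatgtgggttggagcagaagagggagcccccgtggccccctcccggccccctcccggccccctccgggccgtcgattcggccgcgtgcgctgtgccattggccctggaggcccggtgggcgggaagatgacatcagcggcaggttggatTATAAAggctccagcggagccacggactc
Its only match was TATAAA, 29 bases before the start. Its share of G and C was 69.2%, against 54.4% for Nppa, 54.8% for Nppb and a median of 52.4% over all windows.

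Among the receptor genes, Npr2 varied least of the 9 kept genes of the set. Npr2, the CNP receptor, read 197.9 in WT, 186.9 in Het1, 164.6 in Het2 and 203.4 in Hom, a range that left WT and Hom 0.04 log2 units apart. Its Het minus WT difference was -0.17 (SE 0.46, limma adjusted p = 1) and its Hom minus WT difference 0.04 (SE 0.53, limma adjusted p = 1). Npr1, the receptor of ANP and BNP, read 29.37 in WT and 31.88 in Het1 and was at the floor in Het2 and Hom. WT was therefore at least 1.54-fold above both of these arrays. Npr1 was too dim to be kept, and with no filter on level its limma adjusted p was 1 in all 3 comparisons.

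Npr3, the clearance receptor and a marker of endocardium, read 151.9 in WT, 222.4 in Het1, 321.7 in Het2 and 167.4 in Hom. Both Het arrays lay above WT and Hom, as at 22.5% of genes tested, and Het2 was 2.12-fold above WT, where 5.28% of genes were at least 2-fold higher. It was under 2-fold on the other scalings, with log2 differences of 0.85 as deposited and 0.84 after quantile normalization. The Het minus WT difference was 0.82 (SE 0.48, limma adjusted p = 1), that for Hom minus WT was 0.14 (SE 0.55, limma adjusted p = 1), and that for Hom minus Het was -0.68 (SE 0.48, limma adjusted p = 1). The probe sets of Npr3 disagreed. A second one read 20.16, 33.5, a value at the floor and 30.54 in WT, Het1, Het2 and Hom, and so was lowest where the first was highest. The third was at the floor on all 4 arrays. With the mean of all 3 probe sets the Het minus WT difference was 0.38. Endothelial and endocardial markers, 15 of 15 kept, had a median of -0.07 in Het1 and -0.34 in Het2, with 8 of 15 below WT in both Het arrays and 0 above, against 21% and 35.5% of all genes tested; their part in the Npr3 values was not tested.

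Corin, the membrane protease of heart muscle that cleaves the ANP precursor, read 67.95 in WT, 38.39 in Het1, 101.2 in Het2 and 86.91 in Hom. Het1 was lowest and Het2 highest, the reverse of Nppa, and the Het arrays were 2.64-fold apart. With the scaling as deposited Hom was 0.06 log2 units above Het2, against -0.22 after centring. The Het minus WT difference was -0.13 (SE 0.55, limma adjusted p = 1), with the Het arrays on opposite sides of WT, at -0.82 and 0.58. Hom minus WT was 0.36 (SE 0.64, limma adjusted p = 1) and Hom minus Het 0.48 (SE 0.55, limma adjusted p = 1).

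The list of enzymes, cyclases, kinases and phosphodiesterases that process natriuretic peptides or carry their cyclic GMP signal had 16 of 21 genes on the array and 9 kept. Its median was -0.10 in Het1, -0.006 in Het2 and 0.03 in Hom. None of the 9 was 2-fold from WT on any array or passed limma's threshold, where limma called 0.0137% of genes (1 gene) for Het minus WT, 0% for Hom minus WT and 0% for Hom minus Het. At an unadjusted p under 0.05 the counts over all genes were 84, 32 and 63, where 366 would be expected by chance in each comparison. Below WT in both Het arrays were 4 of the 9, and above it 2, where 21% and 35.5% of all genes tested were.

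Ide, the insulin-degrading enzyme that also cuts natriuretic peptides, read 225.5, 306.9, 429.7 and 249.6 in WT, Het1, Het2 and Hom. Vasp, a cytoskeletal substrate of cyclic GMP-dependent kinase, read 184.1, 153, 100.4 and 147.3. Both were more extreme in Het2 than in Het1, in opposite directions. The calcium-dependent phosphodiesterase Pde1a read 114.7, 102.7, 193.8 and 143.8, and was highest in Het2. The cyclic GMP phosphodiesterase Pde9a read 68.72, 73.9, 110.8 and 69.94, likewise highest there. Pcsk6, a proprotein convertase that activates corin, read 86.94, 62.32, 64.37 and 85.03, with both Het arrays low and close together. The soluble guanylyl cyclase subunit Gucy1b1 read 100.5, 104, 73.86 and 107. The remaining kept genes, Furin, Gucy1a1 and Rgs2, stayed within 0.25 log2 units of WT on every array. Of the genes too dim to keep, Prkg1, the main cyclic GMP-dependent kinase, was at the floor on 3 of 4 arrays and Mme, the peptide-degrading neprilysin, read 39.78 to 56.8.

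Myl7 and Sln, but not Myl4, went the other way from the heart muscle markers in Het2. Myl7, the atrial regulatory light chain, read 1621 in WT, 1306 in Het1, 3040 in Het2 and 1271 in Hom. Het2 stood above the other arrays, which lay close together, and the Het arrays were 2.33-fold apart. Het2 was the highest array at 51.3% of genes tested, so this order alone is common. Sln read 104.2 in WT, 82.8 in Het1, 334.1 in Het2 and 123.1 in Hom. It was 4.04-fold higher in Het2 than in Het1 and 2.71-fold above Hom, the nearest array; 2.32% of genes tested were at least 2-fold above all of the other arrays in Het2. The other probe set of Sln was at the floor on all 4 arrays.

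Myl4, the atrial essential light chain, did not share this pattern. It read 1916 in WT, 1418 in Het1, 1818 in Het2 and 1138 in Hom, lowest in Hom. Hom minus WT was -0.75 (SE 0.54, limma adjusted p = 1). Of the 9 genes kept, 0 were 2-fold from WT in Hom; 0.437% of all genes tested were at least 2-fold higher there and 0.465% lower. Hom lay below all of the other arrays at 26.6% of genes tested. The second Myl4 probe set was dim, at 48.56 in WT and 22.69 in Het1 and at the floor in Het2 and Hom, so that WT was at least 2.55-fold above both.

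No genotype difference of the atrial genes passed the test. Het minus WT was 0.30 for Myl7 (SE 0.53), 0.68 for Sln (SE 0.64) and -0.25 for Myl4 (SE 0.47), each with a limma adjusted p of 1. Without Het2 the first and second became -0.31 and -0.33. Hom minus WT was -0.35 for Myl7 (SE 0.61) and 0.24 for Sln (SE 0.74), and Hom minus Het was -0.65 for Myl7 (SE 0.53), -0.43 for Sln (SE 0.64) and -0.50 for Myl4 (SE 0.47), all with limma adjusted p of 1.

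**Figure D2:**
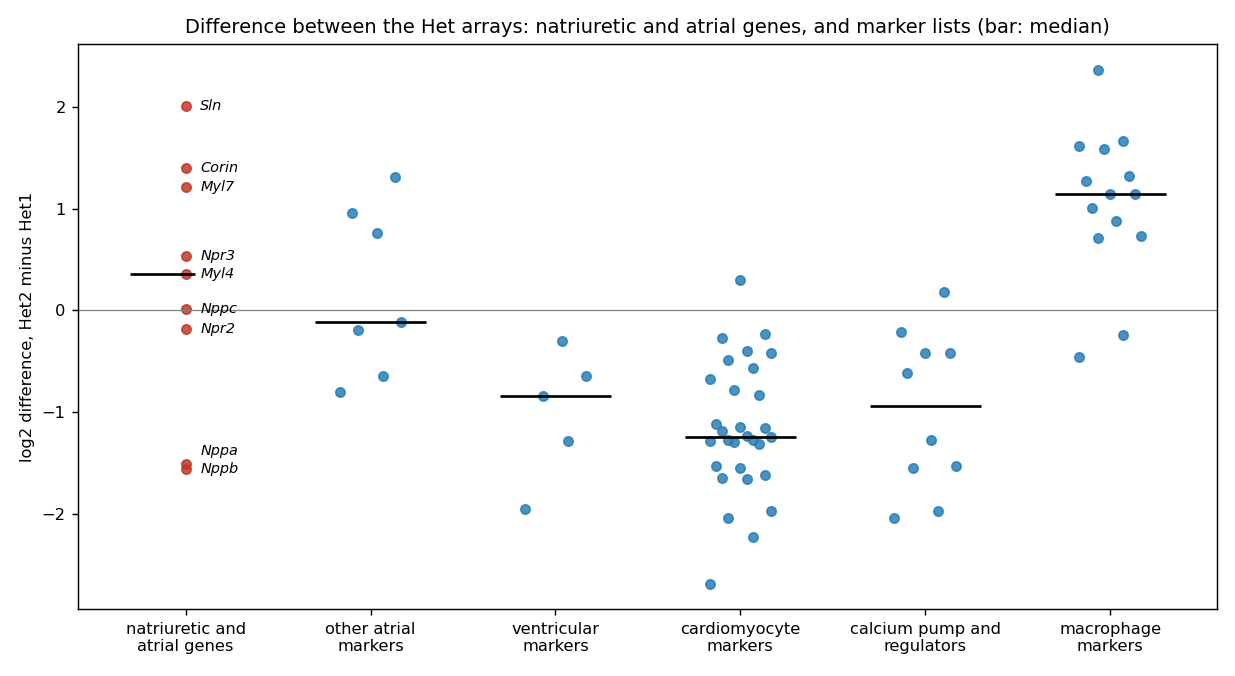
Log2 difference of Het2 minus Het1 for the 9 kept genes of the set, named, and for 5 marker lists, with 1 point for each gene and a bar at the list median. Nppa and Nppb lie near the cardiomyocyte median of -1.24, whereas Sln, Corin, Myl7, Npr3 and Myl4 lie above all 30 cardiomyocyte markers. The highest of these markers was at 0.30, and the median of all genes tested was 0.19. Myl4 was at 0.36, and at -0.009 after quantile normalization. Some genes stand in more than 1 list.

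Within the set, 5 of 9 kept genes were at least 2-fold apart between the Het arrays, against 9.25% of all genes. Nppa and Nppb were lower in Het2, where 2.27% of genes were, and Corin, Myl7 and Sln were higher, where 6.98% were. Under the deposited scaling and quantile normalization the number was 4 of 9, since the Myl7 difference was then 0.96 log2 units. On these scalings 3.2% and 3.38% of genes were at least 2-fold higher in Het2, and 4.56% and 3.24% lower. Both Het arrays carry 1 genotype label, so this difference has no replicate and no test.

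Each gene was also read against the cardiomyocyte markers of the same array, a description chosen after the values were seen, in which array scaling cancels. Relative to the median of the 30 markers, the difference from WT in Het2 was 1.86 for Myl7, 2.63 for Sln, 1.52 for Corin and 0.87 for Myl4. Of the 30 markers, 0 had a higher Het2 minus WT difference than Myl7, Sln, Corin or Npr3, and 2 had a higher one than Myl4. The markers themselves ran from -2.61 to 0.11 on that array. The median of all genes tested was 0.19 there, above the highest marker, so a place above all 30 markers was common. Nppa and Nppb came out at 0.39 and 0.49 in Het2 and at 0.76 and 0.90 in Het1. Both were thus above the marker median on both Het arrays, and 0 of 30 markers exceeded them in Het1 and 7 of 30 in Het2. In Hom, Nppb was 0.61 above the marker median, with 0 of 30 markers higher, and Nppa stood at -0.28.

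**Figure D3:**
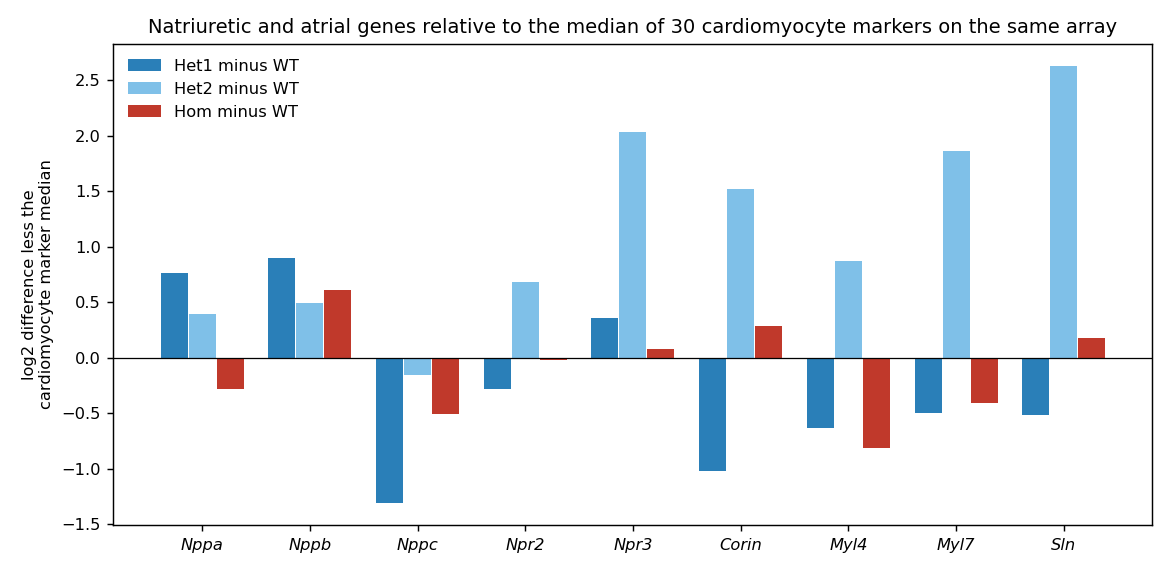
Bars give the log2 difference from WT of each kept gene less the median log2 difference of 30 cardiomyocyte markers on the same array, for Het1, Het2 and Hom. Nppa and Nppb are above 0 on both Het arrays, and the tallest bars are those of Het2 at Sln (2.63), Npr3 (2.03) and Myl7 (1.86). In Het2 the marker median was -0.95 and the median of all genes tested was 0.19.

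The ventricular light chains ran opposite to Myl7 between the Het arrays. Myl2, the ventricular regulatory light chain, read 8505 in WT, 11530 in Het1, 2981 in Het2 and 8130 in Hom. Myl3, the ventricular essential light chain, read 5378, 5305, 2182 and 5449. Both were lowest in Het2, with log2 differences from WT of -1.51 and -1.30, the array on which Myl7 was highest. The non-muscle light chain Myl12a read 1918, 2379, 3725 and 1772, so it was highest in Het2 as well. Myl12b read 1032, 1050, 1450 and 1037, in the same direction. Myl6 read 175.7, 189.2, 166.5 and 139.4 and Myl9, of smooth muscle, 1037, 889.3, 1188 and 682.5, both lowest in Hom.

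The partners of sarcolipin also ran opposite to it. The calcium pump gene Atp2a2 read 2859, 3305, 1146 and 3214 in WT, Het1, Het2 and Hom. Pln, phospholamban, the pump's inhibitor in the ventricle, read 1912, 2875, 698.9 and 2079. Both were at their lowest where Sln was at its highest. Of the 10 kept genes for the calcium pump and its regulators, 4 were at least 2-fold below WT in Het2, against 1.72% of all genes tested. Lower there than in Het1 were 9 of the 10. The 4 genes, Atp2a2, Pln, Hrc and Ryr2, are also among the 30 cardiomyocyte markers. Of those markers 14 were at least 2-fold below WT in Het2, so the counts are not separate.

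Other atrial markers gave no single direction. Of 14 on the array, 7 were kept, with a median of 0.002 in Het1 and -0.40 in Het2. Dkk3, a secreted protein, read 531.2, 441.2, 855.4 and 466.6, and Clu, clusterin, read 2237, 2240, 3799 and 1828, both highest in Het2 as Myl7 was. Nr2f2, a nuclear receptor that sets atrial identity, read 133, 140.5, 80.84 and 113.2, lowest in Het2. Kcnj3, a subunit of the atrial acetylcholine-gated potassium channel, read 107.3, 87.88, 81.07 and 85.5. Tbx5 was below WT on both Het arrays, as given above, while Stard10 was above it on both and Pam was lowest in Hom. The atrial growth factor gene Bmp10 was too dim to keep, at 24.62 in WT, at the floor in Het1, 46.65 in Het2 and 35.63 in Hom. Gja5, the atrial gap junction connexin, was at the floor on all 4 arrays.

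Genes of cardiac stress and hypertrophy, a list that includes Nppa and Nppb, had 8 of 8 genes on the array kept. Their median was 0.47 in Het1 and -0.32 in Het2. Rcan1, an inhibitor of calcineurin, read 237.3, 455.6, 540.1 and 369.8, higher than WT on every mutant array. Acta1, skeletal actin, read 204.5, 194.6, 119.4 and 200.6, and Myh7, the slow myosin heavy chain, read 217.9, 212.4, 172.5 and 206.1. Both were lowest in Het2, as Nppa and Nppb were, but neither was highest in Het1. Ankrd1, a stretch-responsive ankyrin repeat protein of heart muscle, read 914, 1587, 741.5 and 954.8, and so was highest in Het1 and lowest in Het2, like both peptide genes.

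The Myl7 promoter window, chr11:5898783-5899032 (minus strand, GRCm38.p6), is shown beside the peptide promoters because its gene ran against theirs.
Myl7: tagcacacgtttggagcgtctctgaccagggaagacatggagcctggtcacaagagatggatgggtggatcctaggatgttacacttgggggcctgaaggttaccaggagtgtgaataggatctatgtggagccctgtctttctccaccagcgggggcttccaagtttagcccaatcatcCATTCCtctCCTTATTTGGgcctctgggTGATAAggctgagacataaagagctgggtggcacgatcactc
It held GGAATG in reverse complement 70 bases before the start, a CArG box at 61 bases and TGATAA at 42 bases. TGATAA was thus present in the windows of Nppa, Nppb and Myl7 alike, and the GGAATG motif in those of Nppb and Myl7. The windows of Npr1, Npr2, Npr3, Corin and Myl4 held none of the letters searched, and 9 of the 10 genes had a window in RefSeq's table.

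The nearest profiles to Nppa over the 4 arrays were those of the integrin subunit Itgb1 (distance 0.07), Cab39 (0.20), Rcc2 (0.21), Foxj2 (0.24) and Strbp (0.25). Itgb1, by a probe set whose suffix (_a_at) marks shared transcripts of the gene, read 437.8, 901.4, 309.1 and 386 in WT, Het1, Het2 and Hom. The nearest to Myl7 were the dynactin subunit Dctn1 (0.06), the translation initiation subunit Eif3k (0.07), Dock1 (0.09), Qtrt1 (0.10) and Asf1a (0.10). None of these genes is a cardiomyocyte marker of the list used here.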

How the data were processed

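Total RNA of mouse mitral valve had been hybridised to 4 arrays. The deposited table gave 1 linear intensity for each probe set and array; the summarising software is not given in the sources used here. Every deposited column had a mean intensity of 150.1 once the 2% highest and lowest were trimmed.

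The log2 medians of the arrays differed by 0.28, over a limit of 0.1, so the arrays were brought to a common median; this put the median gene 0.19 log2 units above WT in Het2, against -0.05 as deposited and -0.006 after quantile normalization. Values were floored at 19.05 and log2 transformed. Gene names came from the platform annotation, brought up to date through gene identifiers (20364 of 20393 matched), 64 control probe sets were left out, and genes were kept at a geometric mean intensity of at least 60.39, the median, by their probe set with the highest mean. The 7317 genes were fitted with limma 3.58.1 (lmFit, eBayes, Benjamini-Hochberg adjustment, threshold 0.05) in R 4.3.3, in 3 groups; the Het pair gave the 1 residual degree of freedom. WT and Hom, single arrays, were assumed to vary like it. The number of arrays limits the precision. The fit was tested on simulated data. A p that misses the threshold does not show that values did not differ.

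The genes and lists were chosen with earlier results of these data known. All 10 genes and their probe sets were named. In other lists the rule gave the 3 highest and 3 lowest by Het minus WT. It added any gene at least 2-fold from WT in both Het arrays, and not every gene it gave was named. Others named (Ankrd1, Pln, Hrc, Ryr2, Tnnt2, Actc1, Mb, Myh6, Tcap, Myl9, Myl12b, Furin, Gucy1a1, Rgs2, Pam and the genes not kept) were chosen after their values were seen. Profile distance was Euclidean on log2 values less each gene's mean. Promoter windows came from RefSeq, GRCm38.p6. Alternatives were other scalings, filters, floors, probe set rules, eBayes with trend and robust, and leaving out each Het array. Figures used matplotlib 3.10.9 in Python 3.11.15.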

Additional observations from a re-analysis of the deposited data

How the results depend on the processing

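The number of genes called by limma moved with the setting. For Het minus WT, 1 gene was called in the main setting, and 2 after quantile normalization. It was 0 with the scaling as deposited, without the filter on level, with probe sets of a gene averaged and with every probe set tested. For Hom minus Het, 0 became 1 after quantile normalization, with the filter at the 75th percentile and with eBayes with trend and robust. None of the 8 natriuretic and atrial genes tested was called under any of these settings, though Corin and Sln gave no value with the filter at the 75th percentile.

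Without Het replicate 1 and without Het replicate 2, in that order, Het minus WT was -0.56 and 0.95 for Nppa, -0.46 and 1.10 for Nppb, 0.57 and -0.82 for Corin, 0.91 and -0.31 for Myl7, and 1.68 and -0.33 for Sln. In the same order, Hom minus Het was 0.34 and -1.17 for Nppa, 1.14 and -0.42 for Nppb, -0.22 and 1.18 for Corin, and -1.44 and 0.57 for Sln. Leaving out a Het array leaves no residual degrees of freedom, so no count of calls could be made. No paired analysis was possible because WT and Hom have 1 array each and the labels pair no arrays.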
